A study of Mus musculus with 2 samples.

Results

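Genes of sterol and fatty acid synthesis, a pathway controlled by SREBP (sterol regulatory element-binding protein), and genes that regulate SREBP were examined in mouse cardiac myofibroblasts after knockdown of *Vgll3*. The list was chosen by gene symbol and holds 34 genes of the 24532 in the count table. All 34 genes had reads and TPM in both libraries, and all were above the expression filter used here. They were divided by role into 18 enzymes of the sterol branch, 10 enzymes of the fatty acid branch and 6 genes that regulate SREBP or carry sterols.

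The myofibroblasts were isolated from the infarcted hearts of C57BL/6 mice (C57BL/6J by the study's methods) 3 days after myocardial infarction and were kept in medium with 10% foetal bovine serum, which itself supplies lipoprotein cholesterol and fatty acids. They were transfected with control siRNA (siCtrl) or with siRNA that targets *Vgll3* (si*Vgll3*), each at 12.5 nM, and mRNA was sequenced after 72 h. *Vgll3* encodes a cofactor of TEAD transcription factors, and the question asked was which genes depend on it in these cells. Each condition has 1 library, so no value below has a replicate check and no test between the conditions was possible.

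Cells make cholesterol from acetyl-CoA by way of mevalonate, farnesyl diphosphate, squalene and lanosterol. Long-chain fatty acids start from the same acetyl-CoA and are then lengthened and desaturated. The SREBP transcription factors are made as precursors in the endoplasmic reticulum membrane. When sterols are scarce, the escort protein SCAP takes the precursors to the Golgi apparatus, where they are cut and set free, and when sterols are plentiful, INSIG proteins hold SCAP back. SREBP-2 is known mainly for the sterol genes and SREBP-1 mainly for the fatty acid genes.

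Reads assigned to genes numbered 140815237 for siCtrl and 125789276 for si*Vgll3*. TPM values, which are scaled for gene length and library size, were used for all levels. The difference between the libraries is given as M, the log2 ratio of the si*Vgll3* TPM to the siCtrl TPM, and the mean level as A, log2 of the mean TPM. A gene is called lower at M < −0.5 and higher at M > 0.5, among the 11754 genes with A > 0. Square brackets hold a 95% interval (Clopper-Pearson) computed from the reads and moved to the scale of the TPM ratio, which covers counting error only. *Vgll3* itself was at 202 TPM in siCtrl against 84.0 TPM in si*Vgll3*, with M of −1.27 [−1.29, −1.24]. The markers of myofibroblasts were all expressed, with a sum over 10 genes of 21345 TPM in siCtrl against 19848 TPM in si*Vgll3*, and 4 of them were lower and 2 higher by the thresholds above. Markers of other cells were scarce. The 8 leukocyte markers summed to 13.4 TPM in siCtrl against 6.10 TPM in si*Vgll3*, and 4 of them, *Ptprc* included, had 0 reads. Most of that sum was *Lyz2* (10.9 and 3.13 TPM), which was called lower, while *Csf1r* (1.29 and 1.83 TPM) was called higher. The 5 endothelial markers summed to 5.00 and 6.74 TPM. Of the 5 cardiomyocyte markers 4 had 0 reads, *Myh6* included, and *Tnnt2* was at 60.0 TPM in siCtrl against 10.4 TPM in si*Vgll3*. Of the 4 adipocyte markers 3 had 0 reads, which allows up to 3 reads each, and *Adipoq* had 0 reads in siCtrl but 2 reads in si*Vgll3*. The part of these differences in the results below was not tested.

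The lipid synthesis genes had lower TPM in the si*Vgll3* library, with 1 exception. M was below 0 for 33 of the 34 genes, and *Insig2* was the other. In all, 23 genes were called lower and 0 were called higher, while 11 lay between the thresholds. Of all genes with A > 0, 11.4% were called lower and 5.73% higher. The whole counting interval lay below −0.5 for each of the same 23 genes, against 8.31% of all genes. The median M of the 34 genes was −0.69, beside −0.05 for all genes. Summed over the list, TPM was 4782 in siCtrl against 3040 in si*Vgll3*, so 63.6% of the siCtrl level was left. In bulk RNA, fewer cells of a type and less RNA per cell cannot be told apart. The list was proposed with results from these libraries already known, so the counts describe the libraries and are not independent evidence.

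**Figure D1:**
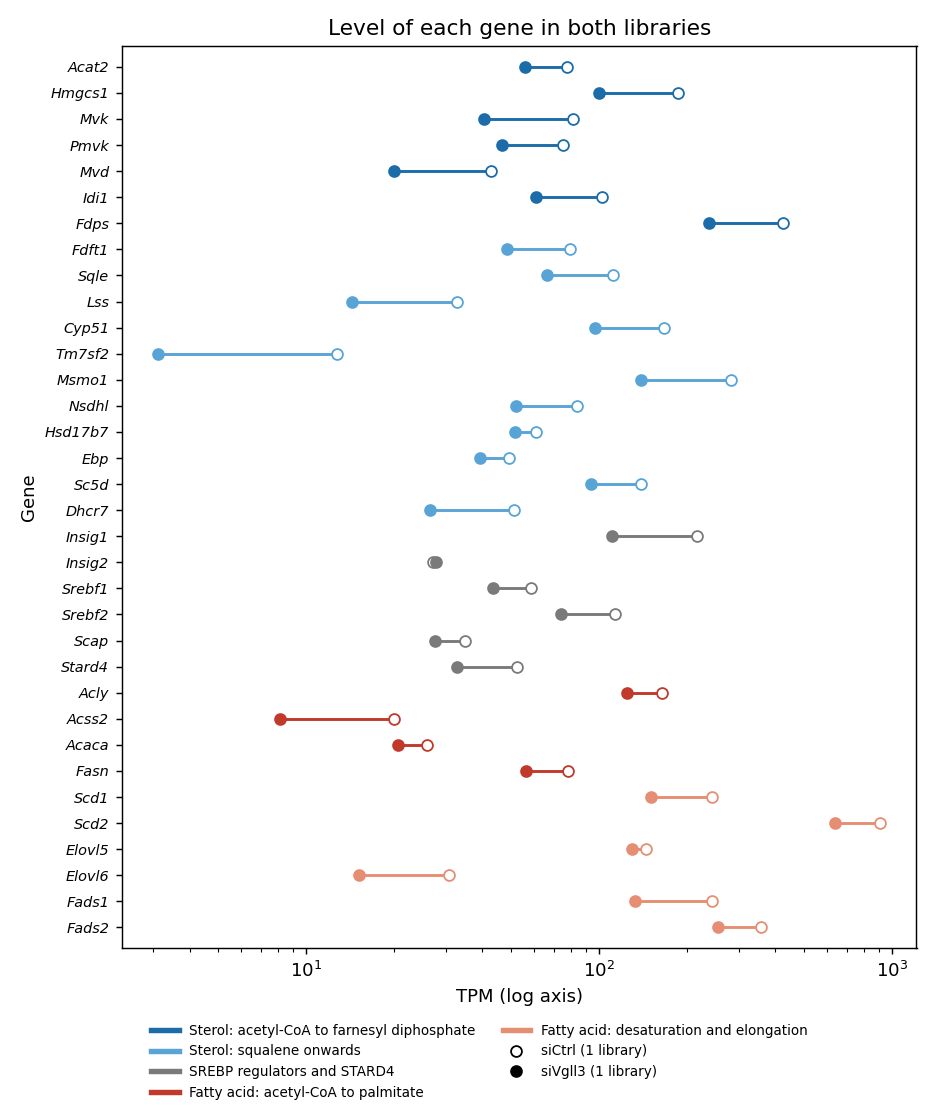
Each line joins the TPM of a gene in the siCtrl library (open circle) to its TPM in the si*Vgll3* library (filled circle) on a log axis, with 1 library per condition and colours for the steps of the pathways. The filled circle lies to the left for 33 of the 34 genes, farthest for *Tm7sf2* (12.7 to 3.12 TPM), and the circles of *Insig2* overlap.

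Windows around the annotated start of transcription of 5 of these genes are shown first, because SREBP acts on sites near the start of transcription together with the factors NF-Y, which binds CCAAT boxes, and SP1, which binds GC boxes. The first 4 genes are the lowest by M in the sterol branch (*Tm7sf2*), among the regulators (*Insig1*) and in the fatty acid branch (*Acss2*), and the gene with the highest M (*Insig2*). The fifth, *Hmgcs1*, was added after the search because it alone, of the genes with a window, held the sterol regulatory element searched for. Each run covers 250 bases before and 50 bases from the start of transcription, written 5′ to 3′ on the strand of the gene, from RefSeq on GRCm38.p6, the assembly also called mm10. Capitals mark CCAAT boxes (CCAAT), GC boxes (GGGCGG), the E-box CACGTG and the sterol regulatory element TCACNCCAC, each searched on both strands. The *Tm7sf2* window is chr19:6067801-6068100 on the minus strand, and the *Insig1* window is chr5:28071162-28071461 on the plus strand. The *Acss2* window is chr2:155517793-155518092 on the plus strand. For *Insig2* the table holds 3 windows, and the one farthest upstream, chr1:121332540-121332839 on the minus strand, is printed. The *Hmgcs1* window is chr13:119690101-119690400 on the plus strand.
Tm7sf2: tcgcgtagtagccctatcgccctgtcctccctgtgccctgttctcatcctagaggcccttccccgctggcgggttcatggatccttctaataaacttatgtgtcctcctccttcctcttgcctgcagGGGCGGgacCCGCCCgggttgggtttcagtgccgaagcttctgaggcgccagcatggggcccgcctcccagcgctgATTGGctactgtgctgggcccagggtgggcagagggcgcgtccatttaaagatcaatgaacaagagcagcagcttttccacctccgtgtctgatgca
Insig1: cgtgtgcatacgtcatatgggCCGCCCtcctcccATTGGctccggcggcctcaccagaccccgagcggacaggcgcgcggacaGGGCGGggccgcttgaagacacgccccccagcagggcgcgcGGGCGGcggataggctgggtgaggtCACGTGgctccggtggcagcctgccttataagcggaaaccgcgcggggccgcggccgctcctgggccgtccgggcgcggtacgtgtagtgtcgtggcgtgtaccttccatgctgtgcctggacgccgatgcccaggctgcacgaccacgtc
Acss2: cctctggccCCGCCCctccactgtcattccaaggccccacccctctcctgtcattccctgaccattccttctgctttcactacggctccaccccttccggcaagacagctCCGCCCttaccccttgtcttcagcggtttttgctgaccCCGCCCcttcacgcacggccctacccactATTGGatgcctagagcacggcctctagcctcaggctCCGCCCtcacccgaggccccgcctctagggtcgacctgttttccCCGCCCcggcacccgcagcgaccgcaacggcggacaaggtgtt
Insig2: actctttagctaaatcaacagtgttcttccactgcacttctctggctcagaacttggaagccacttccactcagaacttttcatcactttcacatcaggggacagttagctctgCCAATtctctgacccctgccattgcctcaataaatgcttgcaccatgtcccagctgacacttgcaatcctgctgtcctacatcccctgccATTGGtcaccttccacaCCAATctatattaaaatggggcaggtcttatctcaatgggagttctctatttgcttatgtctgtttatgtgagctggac
Hmgcs1: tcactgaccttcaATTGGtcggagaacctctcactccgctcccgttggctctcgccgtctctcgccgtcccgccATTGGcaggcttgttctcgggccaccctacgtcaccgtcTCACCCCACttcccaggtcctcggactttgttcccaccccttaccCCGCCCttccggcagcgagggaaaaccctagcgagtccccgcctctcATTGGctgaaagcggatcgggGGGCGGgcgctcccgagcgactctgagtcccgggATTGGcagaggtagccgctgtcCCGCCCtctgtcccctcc

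A window was found for 27 of the 34 genes, 35 windows in all. *Fads1*, *Fdft1*, *Fdps*, *Scd1*, *Scd2*, *Sqle* and *Stard4* had no window and were not searched. CCAAT boxes were held by 22 of the 27 genes, or 81.5%, whereas 43.6% of the 9363 genes with A > 0 and a window held one. By window, 23 of 35 (65.7%) had a CCAAT box, beside 37.4% of all 32851 windows in the table. In the sterol branch 14 of 15 genes held one, the exception being *Acat2*, and in the fatty acid branch 4 of 7 genes did, namely *Acly*, *Acss2*, *Elovl5* and *Fasn*. *Insig2*, which did not differ between the libraries by more than counting error, held CCAAT boxes as well, all in the window printed. Its other 2 windows held GC boxes and no CCAAT box. GC boxes were held by 22 of 27 genes (81.5%), not far from the 70.9% of the expressed genes with a window. The E-box was in the windows of *Dhcr7*, *Elovl5*, *Hsd17b7*, *Insig1*, *Sc5d* and *Scap*, or 22.2% of the genes, beside 12.0% of the expressed genes. The element TCACNCCAC was in the window of *Hmgcs1* only, 137 bases before the start. That is 1 of 27 genes (3.70%), beside 1.36% of the expressed genes with a window and 1.24% of all windows. A shorter form, TCACNCCA, which overlaps it, was also in the windows of *Msmo1* and *Srebf2*. This form was held by 3 of 27 genes (11.1%), beside 4.38% of the expressed genes with a window and 4.36% of all windows. These are matches of letters in short windows, with several windows for some genes, and elements that differ in a letter or lie farther away were not searched.

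In the sterol branch the lower levels ran through nearly every step. Of its 18 enzymes, 15 were called lower and 0 higher, and M was below 0 for all 18, with a median of −0.76. Together they made up 2060 TPM in siCtrl against 1193 TPM in si*Vgll3*, so 57.9% was left. The 3 enzymes between the thresholds were *Acat2*, *Hsd17b7* and *Ebp*.

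The early part of the branch turns acetyl-CoA into farnesyl diphosphate, and 6 of its 7 enzymes were called lower. *Acat2*, which joins 2 molecules of acetyl-CoA, was at 77.6 TPM in siCtrl against 56.0 TPM in si*Vgll3*, with M of −0.47 [−0.52, −0.43]. It was the least lowered enzyme of this part, and its interval reaches the threshold. Of its 50-base words, 39.1% also occur in *Acat3*, so part of its reads could have been split. *Hmgcs1*, the cytosolic HMG-CoA synthase whose window is printed above, was at 186 TPM in siCtrl against 100.2 TPM in si*Vgll3*, with M of −0.89 [−0.91, −0.87], and 12.1% of its exon bases overlap *Gm48342* on the other strand. *Mvk* encodes mevalonate kinase and went with *Mvd*, the decarboxylase further on, as the lowest of this part. *Mvk* was at 81.7 and 40.6 TPM, with M of −1.01 [−1.06, −0.96], and *Mvd* was at 42.7 and 19.9 TPM, with M of −1.10 [−1.18, −1.03]. Less of a difference was seen for *Pmvk*, the kinase that acts between them, which was at 75.4 TPM in siCtrl against 46.8 TPM in si*Vgll3* (M of −0.69). *Idi1*, the isomerase of isopentenyl diphosphate, was at 102 and 61.0 TPM (M of −0.74). *Fdps*, the farnesyl diphosphate synthase, was the most abundant sterol enzyme in both libraries, at 425 and 237 TPM (M of −0.84). Words shared with other annotated genes made up 25.3% for *Idi1* and 26.2% for *Fdps*, the latter mostly with the predicted gene *Gm43738* on the same strand, so some of their reads may belong to those genes.

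From squalene onwards, 9 of 11 enzymes were called lower, and the range of M was wider than in the early part. *Tm7sf2*, which encodes a sterol C14-reductase, had the lowest M of the whole list. Its reads numbered 1201 in siCtrl against 273 in si*Vgll3*, or 12.7 and 3.12 TPM, with M of −2.03 [−2.22, −1.84], and 24.6% of the siCtrl level was left. Only 0.502% of all genes with A > 0 had a lower M. It was also the least abundant gene of the list, and 12.1% of its exon bases lie in *Vps51* on the same strand. Its M became −1.73 when 1 TPM was added to each level. *Lss*, the lanosterol synthase that closes the rings, came next in this part, with M of −1.19 [−1.23, −1.14]. It was at 32.8 TPM in siCtrl against 14.4 TPM in si*Vgll3*. *Msmo1*, the C4-methyl oxidase, was at 282 and 139 TPM, with M of −1.02. *Dhcr7*, which catalyses the last step to cholesterol in one of its routes, was at 51.4 and 26.6 TPM, with M of −0.95.

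The other enzymes that were called lower lay close together in M. The 14α-demethylase *Cyp51* was at 166 TPM in siCtrl against 96.6 TPM in si*Vgll3* (M of −0.78), and *Sqle*, the squalene epoxidase that is a control point of the branch, was at 111 and 66.5 TPM (M of −0.74). *Fdft1*, the squalene synthase, was at 79.4 and 48.4 TPM (M of −0.71). Its exons overlap *Ctsb* on the other strand over 18.3% of their bases. The study's methods name a stranded library kit, but whether strand was used in the counting was not stated. That bears on *Hmgcs1* and *Scap* as well. *Nsdhl*, which acts with *Msmo1* and *Hsd17b7* in removing the C4 methyl groups, was at 84.2 and 52.0 TPM (M of −0.69). *Sc5d*, the lathosterol oxidase, was at 139 and 94.2 TPM (M of −0.57). The remaining pair differed less. *Hsd17b7*, the keto-reductase of the same C4 complex, was at 61.1 TPM in siCtrl against 51.5 TPM in si*Vgll3*, with M of −0.25 [−0.28, −0.21]. *Ebp*, the sterol isomerase, was at 49.3 and 39.3 TPM, with M of −0.33 [−0.39, −0.27]. The 3 genes of the C4 complex therefore had M of −1.02, −0.69 and −0.25, with intervals that do not overlap.

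**Figure D2:**
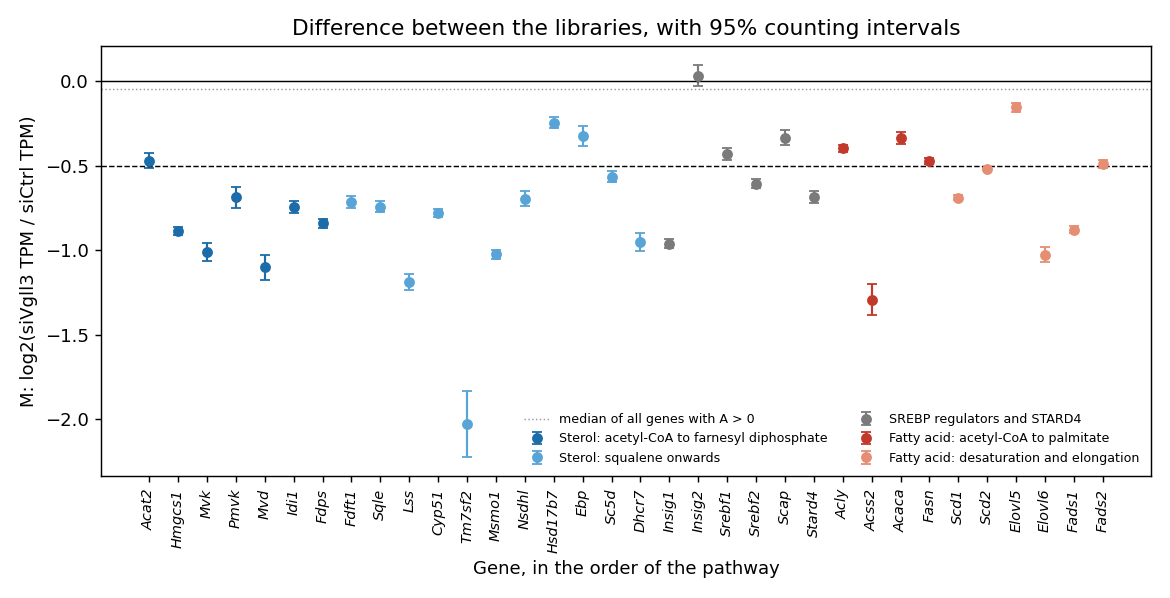
M of each gene is plotted in the approximate order of the pathways, with bars for the 95% counting interval, a solid line at 0, a dashed line at −0.5 and a dotted line at the median of all genes with A > 0 (−0.05). *Tm7sf2* lies lowest at −2.03, 15 of the 18 sterol enzymes lie below −0.5, and only *Insig2* lies above 0.

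Of the 6 regulators and carriers, 3 were called lower, and the pair of INSIG genes differed most from each other. *Insig1*, which is itself an SREBP target, was at 216 TPM in siCtrl against 111 TPM in si*Vgll3*, with M of −0.96 [−0.99, −0.94]. *Insig2*, which encodes the other INSIG protein and is not known as an SREBP target in most cells, was at 27.2 TPM in siCtrl against 27.8 TPM in si*Vgll3*, with M of 0.03 [−0.03, 0.09]. The interval of *Insig2* includes 0, and a gap of 0.91 separates the intervals of the 2 genes. *Insig1* mRNA was thus 7.95 times as abundant as *Insig2* in siCtrl and 3.99 times as abundant in si*Vgll3*, by TPM.

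Of the SREBP genes, *Srebf2* was called lower and *Srebf1* was not. *Srebf2* was at 113 TPM in siCtrl against 74.4 TPM in si*Vgll3*, with M of −0.61 [−0.63, −0.58]. *Srebf1* was at 58.8 and 43.6 TPM, with M of −0.43 [−0.47, −0.40]. The intervals are 0.12 apart, and *Srebf2* had the higher TPM in both libraries. Reads were summed over the isoforms of *Srebf1*, so its SREBP-1a and SREBP-1c forms were not told apart. The escort gene *Scap* was at 34.8 TPM in siCtrl against 27.6 TPM in si*Vgll3* (M of −0.33), and 13.2% of its exon bases overlap *5830462I19Rik* on the other strand. *Stard4*, which encodes a cholesterol carrier of the cytosol and is an SREBP-2 target, was at 52.6 and 32.7 TPM (M of −0.69). These are mRNA levels, and the cutting of the SREBP precursors was not measured.

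In the fatty acid branch, 5 of 10 enzymes were called lower and 0 higher, and all 10 had M below 0. Its median M was −0.50, and its TPM summed to 2219 in siCtrl against 1529 in si*Vgll3*, so 68.9% was left. *Scd2* alone made up 41.1% of this sum in siCtrl, and without *Scd2* 68.2% was left.

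Of the 4 enzymes that lead to palmitate, only *Acss2* was called lower. *Acly*, which makes cytosolic acetyl-CoA from citrate, was at 164 TPM in siCtrl against 125 TPM in si*Vgll3* (M of −0.40). *Acaca*, the acetyl-CoA carboxylase of the rate-limiting step, was at 26.0 and 20.6 TPM, with M of −0.33 [−0.37, −0.30], and 30.4% of its 50-base words occur in other genes, mostly the predicted gene *Gm5182*. *Fasn*, the fatty acid synthase, was at 78.1 and 56.3 TPM, with M of −0.47 [−0.49, −0.45]. *Acss2*, which makes acetyl-CoA from acetate and so feeds both branches, stood apart. It was at 20.0 TPM in siCtrl against 8.15 TPM in si*Vgll3*, with M of −1.29 [−1.38, −1.20], the lowest of the fatty acid branch, and 40.8% of its siCtrl level was left.

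Of the 6 enzymes that desaturate and lengthen fatty acids, 4 were called lower. *Elovl6*, which lengthens palmitate to stearate, was at 30.8 TPM in siCtrl against 15.1 TPM in si*Vgll3*, with M of −1.03 [−1.07, −0.98]. *Elovl5*, which lengthens polyunsaturated fatty acids, was at 144 and 129 TPM, with M of −0.15 [−0.18, −0.13], the smallest difference of the branch. A gap of 0.80 separates the intervals of these elongases.

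The desaturases also differed in pairs. *Fads1*, the delta-5 desaturase, was at 243 TPM in siCtrl against 132 TPM in si*Vgll3*, with M of −0.88 [−0.90, −0.86]. *Fads2*, the delta-6 desaturase next to it on chromosome 19, was at 358 and 255 TPM, with M of −0.49 [−0.52, −0.47], just short of the threshold. *Scd1* and *Scd2*, the stearoyl-CoA desaturases that make oleate, were closer to each other. *Scd1* was at 242 and 150.2 TPM, with M of −0.69 [−0.71, −0.67]. *Scd2*, with 912.8 TPM in siCtrl against 637.7 TPM in si*Vgll3*, was the most abundant gene of the whole list in both libraries, and its M of −0.52 [−0.53, −0.51] was only just below the threshold. Words shared with other genes made up 4.56% for *Scd1*, mostly with *Scd3*, and 3.97% for *Scd2*, mostly with *Scd1*.

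Compared side by side, the sterol branch lay lower than the fatty acid branch. The medians differed by −0.26, and 15 of 18 sterol enzymes were called lower against 5 of 10 fatty acid enzymes. The branches overlapped, since 3 fatty acid enzymes, *Acss2*, *Elovl6* and *Fads1*, had M below the sterol median, and *Hsd17b7* and *Ebp* had M closer to 0 than most of the fatty acid branch. M ran from −2.03 to −0.25 in the sterol branch and from −1.29 to −0.15 in the fatty acid branch. With 1 library per condition the difference between the branches was not tested and is a description of these libraries.

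**Figure D3:**
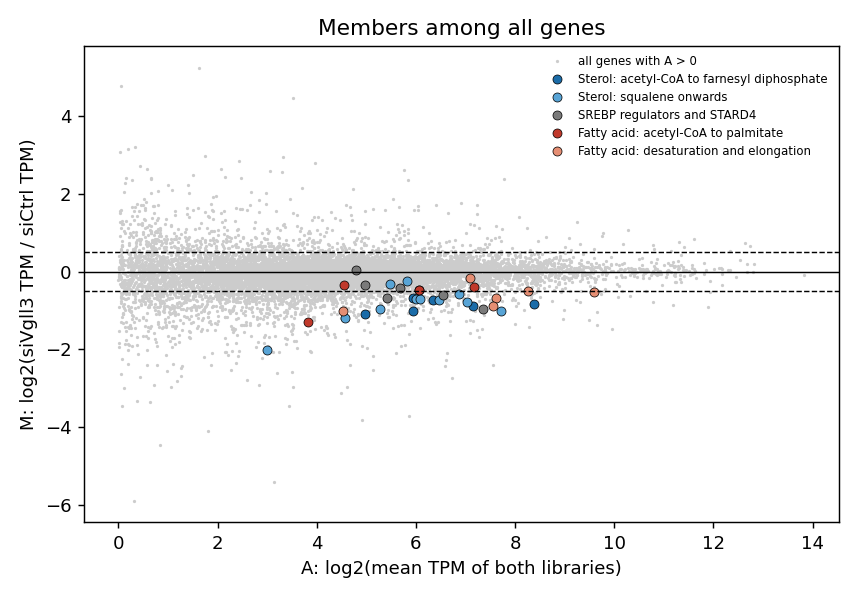
M is plotted against A for the 11754 genes with A > 0 (grey points), with the 34 lipid synthesis genes as coloured circles and dashed lines at the thresholds of −0.5 and 0.5. The coloured circles lie between A of 2.99 and 9.60, and 33 of the 34 lie below M of 0.

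Genes around these pathways were taken from 6 further lists with 85 genes, of which 73 had A > 0. Of these 73, 13 were called lower (17.8%) and 1 was called higher, with a median M of −0.11. Of all genes with A > 0, 11.4% were called lower and 5.73% higher, with a median M of −0.05. These shares are the background for each list below.

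Most of the list of isoprenoid enzymes, which use the same precursors for dolichol, ubiquinone and protein prenylation, was near 0, with a median M of 0.05 and 1 of 10 called lower. *Ggps1*, which makes geranylgeranyl diphosphate, was that gene, at 21.6 TPM in siCtrl against 9.19 TPM in si*Vgll3* (M of −1.24 [−1.30, −1.17]). *Coq2* of ubiquinone synthesis had the highest M, 0.39, at 46.0 and 60.3 TPM. *Fnta*, a subunit of the protein prenyltransferases, was the most abundant, at 76.6 and 78.8 TPM (M of 0.04). Genes for the processing and turnover of SREBP and INSIG numbered 11, and 0 were called in either direction, with a median of −0.0029. M was below 0 for 6 of these 11 genes. In this list *Lpin1* had the lowest M (−0.49 [−0.59, −0.38]), with an interval that spans the threshold, and *Fbxw7* the highest (0.21). *Hsp90b1*, an endoplasmic reticulum chaperone, was the most abundant, at 1238 and 949 TPM (M of −0.38).

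Among 12 genes of sterol trafficking 2 were called lower, with a median M of −0.23. *Gramd1b*, a sterol transfer protein, had the lowest M, at 3.13 TPM in siCtrl against 1.98 TPM in si*Vgll3* (−0.66 [−0.86, −0.46]), *Osbp* had the highest (0.23), and *Npc2*, which binds cholesterol in the lysosome, was the most abundant, at 243 and 236 TPM (M of −0.04). The LXR nuclear receptors respond to oxysterols, and they, their targets and oxysterol enzymes numbered 9 with A > 0, of which 4 were called lower and 0 higher, with a median of −0.44. *Cyp7b1*, an oxysterol hydroxylase, had the lowest M, at 7.42 and 2.51 TPM (−1.56 [−1.75, −1.38]), and *Nr1h2*, one of the LXR genes, had the highest (−0.03). *Lpcat3*, the most abundant of these, was at 76.8 and 56.5 TPM (M of −0.44).

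Other fatty acid enzymes numbered 19 with A > 0, of which 4 were called lower, with a median M of −0.11. *Acsl4*, an acyl-CoA synthetase for arachidonate, was lowest, at 81.7 TPM in siCtrl against 49.5 TPM in si*Vgll3* (M of −0.72 [−0.75, −0.69]). *Pgd*, which makes NADPH in the pentose phosphate pathway, was highest, at 257 and 333 TPM (M of 0.38). *Tecr*, the reductase of fatty acid elongation, was the most abundant, at 351 and 286 TPM (M of −0.29). In glycerolipid synthesis 2 of 12 genes were called lower and 1 higher, with a median of −0.14. *Gpam*, a mitochondrial acyltransferase, was at 19.3 and 11.1 TPM (M of −0.80), *Agpat9*, also known as *Gpat3*, was at 2.29 and 3.94 TPM (M of 0.79 [0.61, 0.97]), and *Agpat1*, the most abundant, was at 112 and 111 TPM (M of −0.01).

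**Figure D4:**
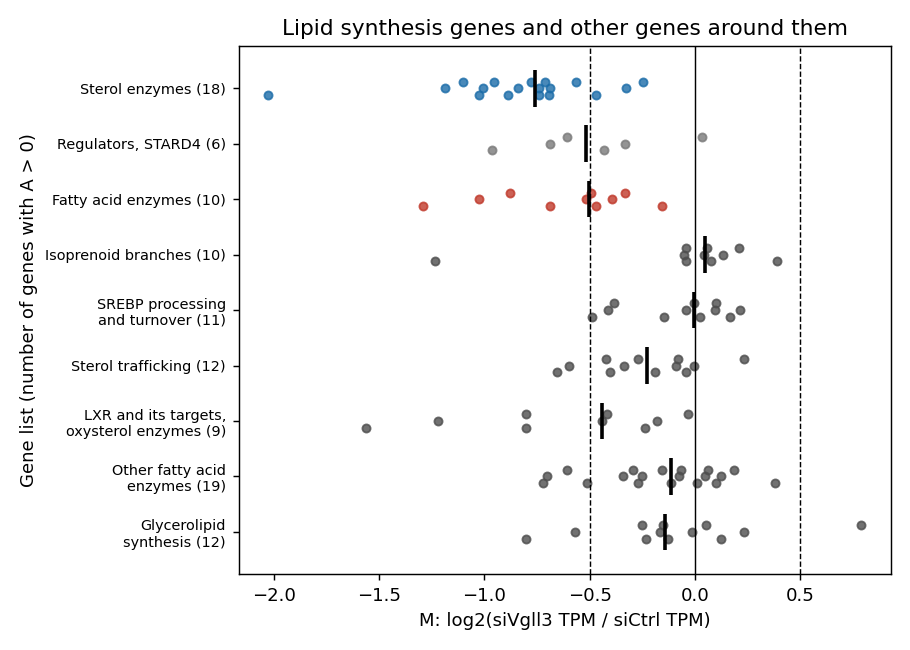
Each point is the M of 1 gene with A > 0, in rows for the 3 groups of lipid synthesis genes and the 6 lists around them, with the number of genes in brackets, a bar at the median of each row and dashed lines at −0.5 and 0.5. The medians are −0.76, −0.52 and −0.50 in the upper rows and between −0.44 and 0.05 in the others.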

How the data were processed

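RNA was sequenced from cardiac myofibroblasts with 1 library per condition. The authors trimmed the reads with Trimmomatic, aligned them with HISAT2 to mm10 and quantified known genes by StringTie. Versions of these tools and the annotation release are not given in the sources used here. The authors deposited raw read counts per gene, which are not normalised, and TPM per gene, which they had scaled for gene length and depth. TPM is therefore relative to all other genes of a library.

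M and A were computed from TPM with nothing added, and the thresholds for lower genes (M < −0.5, A > 0) are those of the study. The threshold for higher genes mirrors them, and the formula of A was chosen here. Counting intervals were 95% Clopper-Pearson intervals (scipy 1.17.1). They were run on simulated reads with counting error alone, which cannot test the spread between cultures or the move to the TPM scale. No test between conditions was made, and edgeR 4.0.16 and DESeq2 1.42.0 served only to scale the counts. For the members, M from TPM minus M from CPM was between −0.05 and −0.03.

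Members and gene lists were chosen with earlier results of these data known. All members are named. Of each further list, the genes with the lowest M, the highest M and the highest mean TPM are named. From these lists 1 gene was left out and is not reported here. In all, 2 symbols were matched by gene ID. Gene overlaps and shared 50-base words came from GENCODE vM21 (GRCm38), and promoter windows from RefSeq. Motifs and *Hmgcs1*'s window were chosen after values were seen. No protein table was used here.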

Additional observations from a re-analysis of the deposited data

How the results depend on the processing

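No paired analysis was possible because there is a single library per condition, and for the same reason no library could be left out. Under 8 other ways of computing or filtering M, 33 of the 34 genes kept their side of −0.5. The settings that only change the filter on A cannot change the M of a gene. No gene changed sign, and *Insig2* alone was above 0 throughout. The gene that changed side was *Scd2*, with M of −0.47 by CPM. The fatty acid branch therefore had 4 genes called lower and the whole list 22 under CPM, TMM scaling, DESeq2 size factors and centred M. In the same order, 1182 of 11806, 1203 of 11807, 1209 of 11803 and 1170 of 11754 genes with A > 0 were lower. The median M of the sterol branch was −0.71 with CPM, −0.72 with TMM scaling, −0.72 with DESeq2 size factors and −0.72 with centred M, and that of the fatty acid branch was −0.45, −0.46, −0.46 and −0.46. Each of these settings moved the members by a near-constant amount. A constant shift cannot change the difference between the branches, which stayed at −0.26 in all of them. With 1 TPM added the difference was −0.25.

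A threshold of 1 on M left 5 of 18 sterol enzymes, 2 of 10 fatty acid enzymes and 7 of the 34 genes called lower. Of all 11754 genes with A > 0, 384 were lower and 207 higher at that threshold. Without a filter on A, 2103 genes were lower and 1428 higher. With A > 2, 393 genes were higher. With A > 0, 442 genes had their whole counting interval above 0.5. All 34 members passed each filter on A. Depth limits these values little, since the least counted member had 273 reads in a library, but the spread between cultures is unknown.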
